A study of Mus musculus with 8 samples.

Results

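Interleukin-2 and the receptor chains of its cytokine family were followed in mouse CD4 T cells as they passed from the naive state to the Th17 state. The set held 8 genes taken by name, of 16308 in the count table, and 8 of 8 were found: the ligand gene Il2 and the receptor genes Il2ra, Il2rb, Il2rg, Il7r, Il4ra, Il15ra and Il9r. The Th17 cells came from C57BL/6 naive CD4 T cells cultured for 72 h on anti-CD3ε (0.25 µg/mL) plus anti-CD28 (1 µg/mL), together with 20 ng/mL of IL-6 and 0.1 ng/mL of TGF-β, although a second protocol entry gives TGF-β as a range of 0.1 to 5.0 ng/mL. No added IL-2 and no cytokine-blocking antibody is named in the labels. DDX5-deficient Th17 cells and the wild-type Th17 cells set beside them had the same agents and time, and they entered only a table of RNA editing sites; what drove the loss of DDX5 is not given in the sources used here. Naive cells were untreated C57BL/6 CD4 T cells. Column labels mark the naive and Th17 libraries compared for expression as wild type (WT). The same labels start with Malat1, the meaning of which is not given in the sources used here. Each group had 2 libraries of ribosome-depleted RNA, called biological replicates by the submitters, and expression was compared between 2 Th17 and 2 naive libraries.

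Interleukin-2 is a growth factor that activated T cells make and also respond to. Its receptor has a pair of signalling chains, IL-2Rβ (Il2rb) and the common gamma chain γc (Il2rg), joined by CD25 (Il2ra), a chain which raises the affinity for IL-2 but does not signal. The γc chain is shared with the receptors for IL-4, IL-7, IL-9, IL-15 and IL-21, where it pairs with a chain proper to each cytokine, and signals pass through the kinases JAK1 and JAK3 to STAT proteins. Naive T cells depend on IL-7 for survival, and in mice IL-2 acting through STAT5 is known to restrain Th17 differentiation.

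The libraries held between 11768994 and 26624436 reads on genes. The marker genes fitted the labels: 6 of 6 Th17 markers were called higher and summed to 3684 and 3464 CPM (read counts scaled to library size with TMM factors) in the Th17 libraries, against 7.27 and 5.07 CPM in the naive libraries. Of 6 naive CD4 T cell markers 6 were called lower in Th17 cells, with summed levels of 1783 and 1620 CPM in Th17 and 7460 and 7992 CPM in naive libraries, and Cd4 itself lay at 593 ± 48.1 CPM in Th17 cells against 1342 ± 97.6 CPM in naive cells (SD, n = 2). Th17 library 1 was the deepest and Th17 library 2 the shallowest, yet library 2 had reads on 15316 genes and library 1 on 14435.

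Relative to library size, Th17 cells had far more mRNA for IL-2 and for both IL-2 binding chains than naive cells, and less for the shared γc chain and for the IL-7 receptor. Of the 8 genes, Il2, Il2ra, Il2rb and Il9r were called higher in Th17 cells, Il7r and Il2rg were called lower, and Il4ra and Il15ra did not pass the test. Il2 and Il9r passed the filter on low counts through their Th17 reads alone, so they could only be called higher. A call means an adjusted p under 0.05 in the quasi-likelihood test of edgeR, adjusted by Benjamini and Hochberg's method over the 11989 genes tested. In that comparison 65.1% of all tested genes were called, 34.3% higher and 30.7% lower, so the number of calls among the 8 genes is close to the background and the sizes carry the description. The median log2 fold change was 1.16 over the 8 genes and 0.06 over all tested genes. Levels of Th17 and naive libraries did not overlap for 7 of the 8 genes, as for 85.0% of all tested genes. RNA was measured in bulk, where a change in the share of cells with a transcript and a change in the transcript per cell cannot be told apart. CPM are relative to all reads of a library, so they do not show a difference in total RNA per cell.

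**Figure D1:**
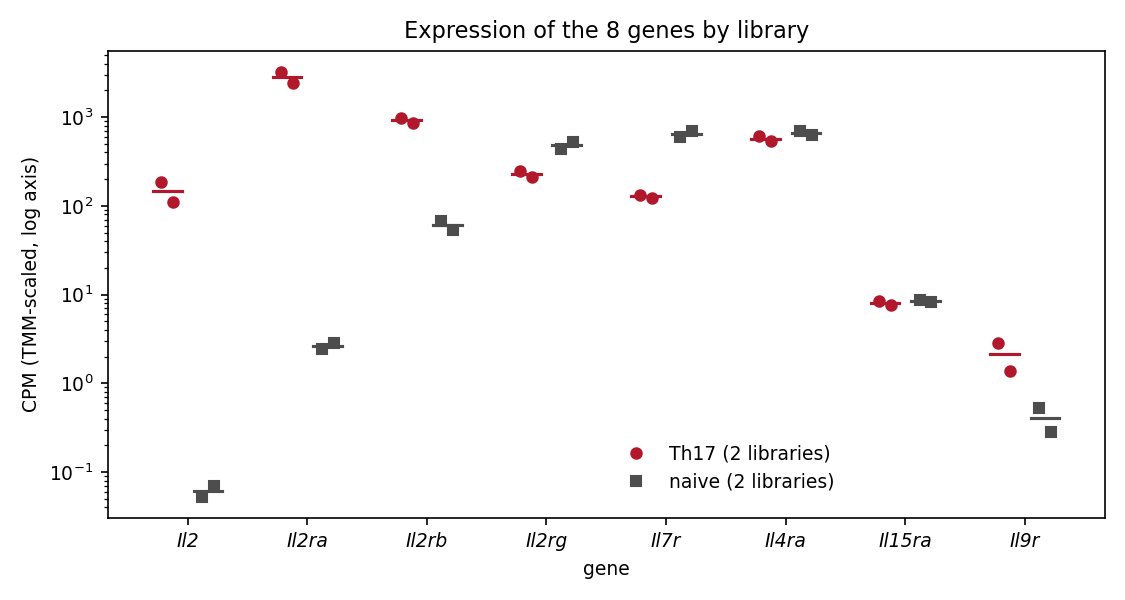
Expression of the 8 genes in CPM on a log axis, with a point for each of the 2 Th17 (circles) and 2 naive (squares) libraries and a line at each group's mean. Il2, Il2ra and Il2rb lie above naive cells in both Th17 libraries, Il2rg and Il7r lie below them, and the points of Il15ra overlap.

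**Figure D2:**
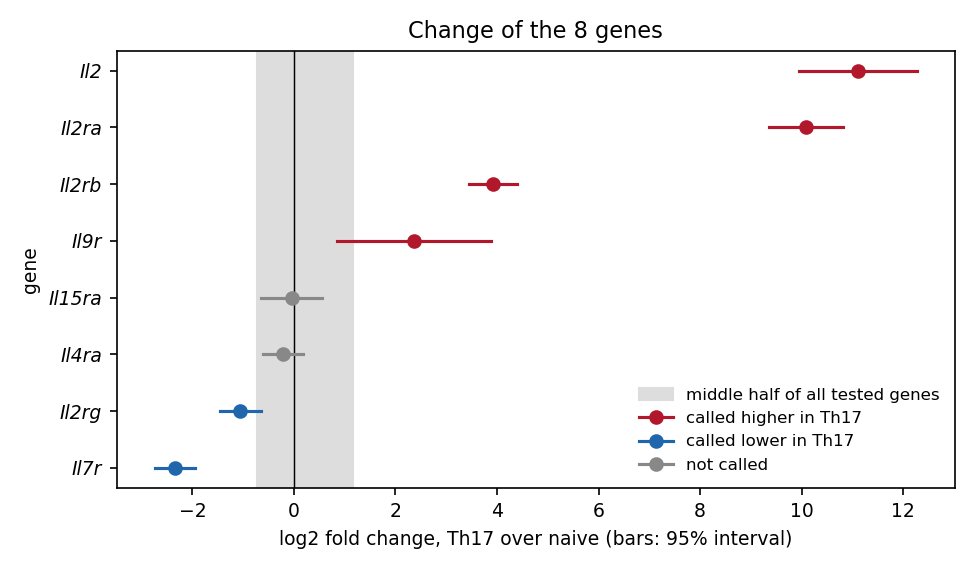
Log2 fold change (Th17 over naive) for the 8 genes with the 95% interval of the fit, over a grey band at the interquartile range of all tested genes (-0.73 to 1.16). The intervals of Il15ra and Il4ra cross 0, and the value of Il2 rests on 2 naive reads.

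Il2, the ligand, was nearly silent in naive cells. The gene (ENSMUSG00000027720, mm10 chromosome 3, 37120523 to 37125959, minus strand) had 5288 and 1472 reads in the Th17 libraries and a single read in each naive library. This gave 183 and 112 CPM in Th17 cells against 0.0531 and 0.0704 CPM in naive cells, with Th17 library 1 at 1.64 times library 2 and both far above naive cells. The ratio of summed reads, scaled to library size, was 2658 with an exact conditional binomial 95% interval of 736 to 21953, which covers counting error only. The edgeR adjusted p was 2.1e-06, and the fitted log2 fold change of 11.10 (SE 0.49) depends on the small count added to the naive reads. The promoter is shown because Il2 and Il2ra rose most and Il7r fell most among the 8 genes. The window runs from 250 bases before to 50 after the RefSeq start site (GRCm38.p6, minus strand, chr3:37125905-37126204), and capitals mark every motif match.
Il2 promoter: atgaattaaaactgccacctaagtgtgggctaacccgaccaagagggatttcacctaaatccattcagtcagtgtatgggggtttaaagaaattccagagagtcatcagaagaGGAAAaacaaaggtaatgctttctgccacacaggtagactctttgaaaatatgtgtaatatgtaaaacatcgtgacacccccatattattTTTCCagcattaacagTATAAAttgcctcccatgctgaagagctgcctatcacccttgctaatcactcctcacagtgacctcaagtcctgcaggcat
The letters searched were GGAAA for the core of NFAT sites, TGANTCA for AP-1, TTCNNNGAA for STAT proteins, GTAAACA for FOXO and a consensus for NF-kB, on both strands, and TATAAA on the gene strand. NFAT is the calcium-driven factor of T cell receptor signalling. The Il2 window held the NFAT core at -137 and, on the other strand, at -47, and TATAAA at -31, counted from the start site. Of 32851 RefSeq windows of this length 61.3% held the NFAT core and 8.32% held TATAAA, so the first match is common. A match describes the letters and is not evidence of binding.

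Il2ra, which encodes CD25, had the highest Th17 level of the 8 genes. It lies on chromosome 2 at 11642807 to 11693193, plus strand (ENSMUSG00000026770). The Th17 libraries had 3225 and 2455 CPM, from 92976 and 32395 reads, and the naive libraries had 2.44 and 2.82 CPM, from 46 and 40 reads. The lower Th17 value was 872 times the higher naive value. The fitted fold was 1083 (95% interval 656 to 1787), or 10.08 in log2 (SE 0.32, edgeR adjusted p 1.1e-07). By absolute log2 fold change Il2 ranked 75th and Il2ra 133rd among the tested genes. Per length of exon Il2ra ranked 60th of 16295 genes in Th17 cells and 9869th in naive cells. Its window (GRCm38.p6, plus strand, chr2:11642542-11642841) is printed beside that of Il2 with the same marking.
Il2ra promoter: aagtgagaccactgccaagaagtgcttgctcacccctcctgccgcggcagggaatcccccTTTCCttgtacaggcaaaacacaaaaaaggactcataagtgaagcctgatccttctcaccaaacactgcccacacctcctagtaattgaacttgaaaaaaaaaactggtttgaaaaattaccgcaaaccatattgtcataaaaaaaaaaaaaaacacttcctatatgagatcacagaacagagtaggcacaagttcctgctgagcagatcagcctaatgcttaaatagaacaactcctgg
It held 1 NFAT core, on the other strand at -190. TATAAA and the AP-1, STAT, FOXO and NF-kB letters given above were absent from this window, which says nothing of sites elsewhere in the gene. Only exact matches to those letters were counted, so other forms of these sites, of NF-kB among them, were not sought. Regulatory T cells carry CD25, and of their 6 markers, all measured, 3 were called higher, 2 lower and 1 was not called. Beside that, 34.3% of all tested genes were called higher and 30.7% lower. Itgb8 and Lrrc32 passed the filter on low counts through their Th17 reads alone, and Foxp3 through its naive reads alone. Each of these calls had a single possible direction. Itgb8, Lrrc32 and Nrp1 rose with Il2ra, at 18.7 ± 7.31, 8.80 ± 3.42 and 16.5 ± 5.53 CPM in Th17 cells, against 0.141 ± 0.100, 0.0883 ± 0.0253 and 3.22 ± 1.07 CPM in naive cells (SD, n = 2). Nrp1 was not called without naive library 2 (edgeR adjusted p 0.068). Gpr83 and Foxp3 fell, and Foxp3, the defining factor gene, lay at 0.0899 ± 0.020 CPM in Th17 cells, from 4 reads, and 6.74 ± 1.27 CPM in naive cells (SD, n = 2). The part of such cells in the level of Il2ra was not tested.

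Il2rb, the β chain of the IL-2 and IL-15 receptors (chromosome 15, 78479256 to 78495271, minus strand, ENSMUSG00000068227), lay at 973 and 863 CPM in Th17 cells, against 67.3 and 54.1 CPM in naive cells. Both Th17 libraries were at least 12.8 times the higher naive library. The fitted fold was 15.1 (95% interval 10.9 to 20.97), or 3.92 in log2 (SE 0.21, edgeR adjusted p 8.4e-07). NK and CD8 T cells also carry Il2rb, and the 9 markers of those cells, all measured, summed to 54.0 and 54.9 CPM in Th17 libraries and 98.9 and 113 CPM in naive libraries. Of the 9, 6 were tested, and 1 was called higher, 4 lower and 1 was not called, beside 34.3% higher and 30.7% lower of all tested genes. The 1 called higher was Nkg7, a cytotoxic granule gene and the highest of the 9 in Th17 cells. Nkg7 lay at 28.3 ± 0.560 CPM in Th17 and 5.42 ± 0.592 CPM in naive cells (SD, n = 2, log2 2.38, edgeR adjusted p 1.3e-05). The perforin gene Prf1 was the highest in naive cells at 56.2 ± 4.84 CPM and was called lower in Th17 cells, at 5.15 ± 0.653 CPM (SD, n = 2). Ncr1, which marks NK cells, had 1 read in the Th17 libraries together and 11 in the naive libraries together. A part of these cells in the levels of Il2rb was not tested.

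Il2rg, the shared γc chain, changed the other way. The gene (chromosome X, 101264378 to 101268255, minus strand, ENSMUSG00000031304) had 249 and 212 CPM in Th17 cells and 438 and 522 CPM in naive cells, without overlap. The fold was 0.481 (95% interval 0.363 to 0.637), a log2 of -1.06 (SE 0.18) with an edgeR adjusted p of 8.4e-04. With upper quartile factors in place of TMM, which moved the median of all tested genes up by 0.11 in log2, Il2rg lay at -0.94 and was still called. The gene Gm20489 shares 728 exon bases with Il2rg on the same strand and was itself given 1 read over the 4 libraries together, and how the authors' counting treated reads in shared exons is not given in the sources used here. The γc and β chains thus moved in opposite directions, with Il2rb at 2.17 and 2.27 times Il2rg per length in Th17 libraries, against 0.0856 and 0.0577 times in naive libraries.

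Il7r, the IL-7 receptor α chain, showed the largest fall of the 8 genes. It lies on chromosome 15 at 9505788 to 9530176, minus strand (ENSMUSG00000003882), with 132 and 124 CPM in Th17 cells and 601 and 695 CPM in naive cells. The lower naive library was 4.57 times the higher Th17 library. The fitted log2 fold change was -2.34 (SE 0.18, edgeR adjusted p 6.5e-06), a Th17 level 0.197 times the naive level (95% interval 0.150 to 0.260). The fall left Il7r transcribed, at rank 1813 of 16295 genes per length in Th17 cells, against rank 284 in naive cells. Its window (GRCm38.p6, minus strand, chr15:9529827-9530126) is shown as that of the member with the largest fall. The whole window lies inside the gene span given above, so the RefSeq start site used here differs from the GENCODE start of Il7r.
Il7r promoter: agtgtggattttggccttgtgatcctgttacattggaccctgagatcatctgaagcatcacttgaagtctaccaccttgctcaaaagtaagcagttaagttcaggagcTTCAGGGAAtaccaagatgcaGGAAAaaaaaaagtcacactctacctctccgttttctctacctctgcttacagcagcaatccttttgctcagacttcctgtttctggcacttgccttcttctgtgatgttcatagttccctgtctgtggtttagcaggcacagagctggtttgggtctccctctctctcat
This was the only one of the 8 windows found, over 7 of the 8 genes, that held the STAT letters, at -142, as did 8.30% of all windows. An NFAT core stood at -121, and the FOXO letters, found in 3.65% of all windows, were absent. The table of windows had none for Il2rb.

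The remaining receptor chains changed little or were rare. Il4ra, the IL-4 receptor α chain (chromosome 7, 125552120 to 125579474, plus strand, ENSMUSG00000030748), lay at 612 and 536 CPM in Th17 cells and 697 and 635 CPM in naive cells. The values did not overlap, but the difference of -0.21 in log2 (95% interval -0.62 to 0.19) was not called at an edgeR adjusted p of 0.31. The antisense gene Gm44876 shares 571 exon bases with Il4ra, and without a stated use of strand its reads cannot be told apart from those of Il4ra. Il15ra, which presents IL-15 to the β and γc chains (chromosome 2, 11705290 to 11734317, plus strand, ENSMUSG00000023206), had 8.57 and 7.65 CPM in Th17 and 8.60 and 8.17 CPM in naive cells, from 101 to 247 reads per library. These overlapped, with a log2 difference of -0.05 (95% interval -0.65 to 0.56, edgeR adjusted p 0.89), so a change of up to about 1.47-fold upward or down to 0.637-fold lies within the interval.

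Il9r, the IL-9 receptor chain (chromosome 11, 32187541 to 32200279, minus strand, ENSMUSG00000020279), was the rarest receptor. It had 83 and 18 reads in Th17 libraries and 10 and 4 reads in naive libraries, that is 2.88 and 1.36 CPM against 0.531 and 0.282 CPM. The Th17 libraries differed from each other by 2.11 times. The log2 fold change was 2.36 (SE 0.67, edgeR adjusted p 0.012). The call was lost in 5 of the 11 alternatives, among them leaving out Th17 library 1 (log2 1.66, adjusted p 0.10), naive library 1 (2.84, 0.16) or naive library 2 (1.91, 0.25), and the authors' deposited table gives 2.39 with an adjusted p of 0.085. For the other 7 genes the authors' deposited table gave the same calls, with log2 fold changes of 11.32 for Il2, 10.10 for Il2ra, 3.95 for Il2rb, -1.03 for Il2rg and -2.31 for Il7r.

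Levels between genes were set side by side as CPM per kilobase of exon. In Th17 cells Il2ra came first at 497 ± 95.4, then Il2rb at 214 ± 18.2, Il2 at 129 ± 44.4, Il2rg at 96.6 ± 11.1, Il4ra at 95.6 ± 8.86, Il7r at 27.4 ± 1.12, Il15ra at 1.82 ± 0.146 and Il9r at 0.429 ± 0.217 CPM per kilobase (SD, n = 2). The values of Il2, Il2rg and Il4ra overlapped between libraries, so their order is not resolved, and with the longest transcript as the length Il2rg stood above Il2. In naive cells the order began with Il2rg at 201 ± 24.8, Il7r at 139 ± 14.3 and Il4ra at 111 ± 7.29, followed by Il2rb at 14.2 ± 2.18, Il15ra at 1.89 ± 0.0681 and Il2ra at 0.460 ± 0.0465 CPM per kilobase (SD, n = 2). Il9r at 0.0821 ± 0.0356 and Il2 at 0.0540 ± 0.0107 CPM per kilobase (SD, n = 2) came last and overlapped. The naive order was the same with the longest transcript as the length.

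These shifts changed the make-up of the receptor transcripts. Together with Il21r, the IL-21 receptor chain, the receptor genes summed to 1177 and 997 CPM per kilobase in Th17 libraries and 579 and 617 in naive libraries. Il2ra made up 48.0% and 43.1% of that sum in Th17 libraries, against 0.0739% and 0.0799% in naive libraries. Il2rg made up 8.87% and 8.90% in Th17 libraries, against 31.7% and 35.4% in naive libraries, and Il7r 2.40% and 2.67% against 22.3% and 24.2%. The shares are not independent, since they sum to the whole in each library.

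**Figure D3:**
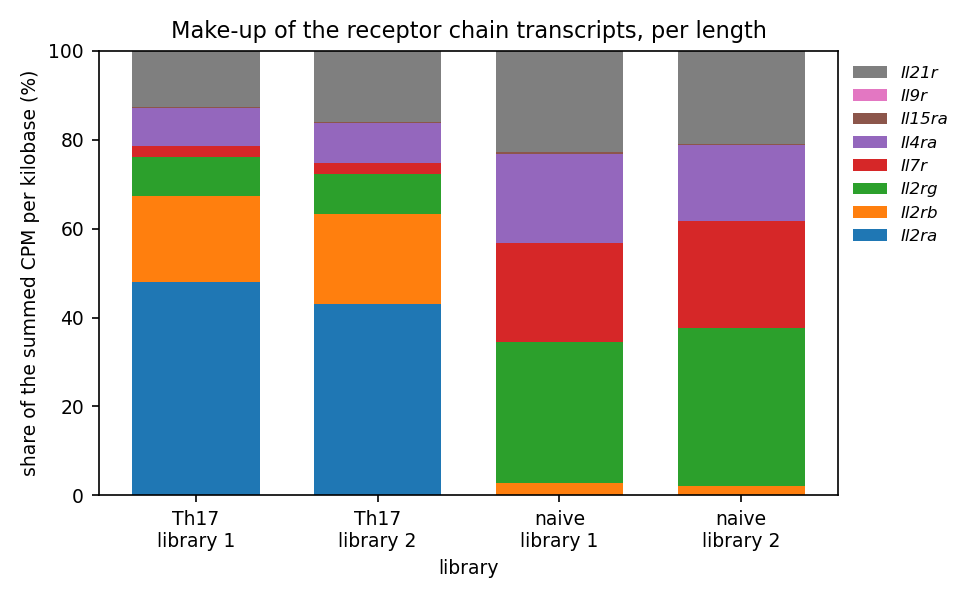
Share of each receptor gene in the summed CPM per kilobase of 8 receptor genes, with a bar for each Th17 and naive library. Il2ra and Il2rb fill most of both Th17 bars, and Il2rg, Il7r, Il4ra and Il21r fill most of both naive bars.

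Read by receptor, the rarest chain of the IL-2 receptor differed between the states. In Th17 libraries γc was the rarest of the IL-2 receptor chains, with Il2ra at 5.41 and 4.84 times Il2rg per length, and in naive libraries Il2ra was the rarest at 0.00233 and 0.00226 times Il2rg. For the IL-7 receptor Il7r lay below Il2rg in both states, at 0.270 and 0.300 times in Th17 and 0.703 and 0.682 times in naive libraries. For the IL-4 receptor Il4ra and Il2rg were near parity in Th17 libraries at 0.976 and 1.01, against 0.633 and 0.484 in naive libraries. That parity depends on the length used. With the longest transcript the Th17 levels were 109 for Il4ra and 138 CPM per kilobase for Il2rg. The sizes of the other ratios to Il2rg move with the length as well. Chains that pair with γc (Il2rb, Il7r, Il4ra, Il9r and Il21r) summed to 4.85 and 5.38 times Il2rg in Th17 libraries and 2.14 and 1.81 times in naive libraries. These are ratios of mRNA and were given no test, and protein was not measured.

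Several family genes lie side by side in the genome, and neighbours did not always move together. Il15ra begins 12.1 kb after the end of Il2ra on the same strand, and of this pair Il2ra rose 1083-fold while Il15ra had a fold of 0.969. Il21, the IL-21 gene, lies 96.8 kb from Il2 on the same strand, and both were called higher. Il21r lies 24.0 kb from Il4ra on the same strand, and neither was called.

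Genes with the most similar course were sought for the 3 members with the largest change, as the smallest distance between centred log2 CPM profiles over the 4 libraries, with 0.5 reads added. For Il2rb the nearest gene was Cish, a feedback inhibitor of cytokine signalling through STAT5, at a distance of 0.0865 log2 units, with 468 and 383 CPM in Th17 and 30.7 and 25.4 CPM in naive libraries. The mitotic genes Ncaph and Aurka followed at 0.0899 and 0.119. For Il2ra the nearest were the cadherin gene Cdh17 at 0.117, with 99.6 and 83.2 CPM in Th17 cells and a single read in each naive library, and Timd2 and Rai14 at 0.197 and 0.204. For Il2 they were Mmp10, Cysltr1 and Pde1a at 0.245 to 0.437. All of these but Cish, Ncaph, Aurka and Cdh17 had 0 naive reads, so their likeness depends on the count added, and over 4 libraries in 2 groups a small distance mostly says that the sizes of the change were close.

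The other ligands and receptors of the family were read from a list of 10 genes, of which 7 passed the filter on low counts, 4 of them (Il4, Il9, Il13 and Il21) through their Th17 reads alone. Il4, Il21 and Il13ra1 were called higher, Crlf2 lower, and Il9, Il13 and Il21r were not called. The shares over all tested genes were 34.3% higher and 30.7% lower. Il21, made by activated T helper cells, had 260 and 156 CPM in Th17 cells, against 1 and 2 reads in the naive libraries, a ratio of summed reads of 2510 (exact conditional 95% interval 858 to 12200, edgeR adjusted p 5.7e-06). Il4, the Th2 cytokine gene, had 152 and 15 reads in Th17 libraries and 0 in naive libraries, at least 17.3-fold higher against a floor of 3 reads per naive library. That bound was 6.14-fold without Th17 library 1 and 28.5-fold without Th17 library 2. The gene was not called when naive library 1 or naive library 2 was left out (adjusted p 0.076 and 0.072). Th17 library 1 was above library 2 for the 5 cytokine genes Il2, Il4, Il9, Il13 and Il21. Il9 had 688 and 58 Th17 reads and Il13 had 7399 and 309, each with 0 naive reads. Neither was called (edgeR adjusted p 0.094 and 0.24), though Il9 was called in 7 of the 11 alternatives and Il13 in 5. Both were called by DESeq2, with no robust estimation, with the replicate block and on leaving out either of the Th17 libraries. Rises in this list numbered 3 in the main fit, 5 with no robust estimation or the replicate block, and 6 by DESeq2. Il7, Il15 and Tslp, ligands made mainly by non-lymphoid cells, had at most 12 Th17 reads each in both libraries together and were not tested.

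Among the receptors on that list, Il21r lay at 493 and 530 CPM in Th17 cells, against 439 and 429 CPM in naive cells (log2 0.24, edgeR adjusted p 0.23), and was called by DESeq2 alone (adjusted p 0.023). Crlf2, which pairs with Il7r in the TSLP receptor, lay at 26.5 ± 2.01 CPM in Th17 and 37.9 ± 3.64 CPM in naive cells (SD, n = 2), a log2 of -0.52 (SE 0.16, edgeR adjusted p 0.018). That call was lost with upper quartile factors and without Th17 library 1 (adjusted p 0.062), naive library 1 (0.13) or naive library 2 (0.065). Il13ra1, a partner of Il4ra for IL-13, had 42 and 121 reads in Th17 and 7 and 11 in naive libraries (log2 3.20, SE 1.04, edgeR adjusted p 0.041). Its log2 fold change was 1.38 without Th17 library 2 and 4.0 without Th17 library 1. It was not called without Th17 library 2 (adjusted p 0.088), naive library 1 (0.28) or naive library 2 (0.20). The list's median log2 fold change was 8.94, or 4.11 with the 3 genes of 0 naive reads at their lower bound, against 0.06 over all tested genes.

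Downstream of the receptors, the genes of signalling and feedback moved in both directions. Of 13 genes of JAK-STAT signalling and feedback, all tested, 6 were called higher, 4 lower and 3 were not called, with a median log2 fold change of 0.03 against 0.06 over all tested genes. Of all tested genes 34.3% were called higher and 30.7% lower. Stat5a rose to 493 ± 65.9 CPM in Th17 cells, against 124 ± 3.51 CPM in naive cells (SD, n = 2, log2 2.0, SE 0.18). Its neighbouring paralog Stat5b lay at 354 ± 48.1 CPM in Th17 and 346 ± 19.8 CPM in naive cells (SD, n = 2) and was not called (edgeR adjusted p 0.87). Reads from stretches that both paralogs share could have been split between them in the authors' counting. The inhibitor genes Cish, Socs2 and Socs1 were higher in Th17 cells, Cish by 3.92 in log2 (SE 0.20), Socs2 by 6.44 (SE 0.38) and Socs1 by 1.84 (SE 0.39), as was Stat3, which carries IL-6 and IL-21 signals, by 0.95 (SE 0.17). Socs2 started from 3 reads in each naive library and passed the filter on low counts through its Th17 reads alone.

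Jak1, whose kinase binds the cytokine-specific chains, fell to 326 ± 0.313 CPM in Th17 cells, against 1333 ± 83.3 CPM in naive cells (SD, n = 2, log2 -2.03, SE 0.18, edgeR adjusted p 1.9e-05). Jak3, whose kinase binds γc, lay at 304 ± 17.8 CPM in Th17 and 303 ± 87.2 CPM in naive cells (SD, n = 2) and was not called. Stat6, which carries the IL-4 signal, changed by -0.54, the phosphatase gene Ptpn6 by -0.59, the adaptor gene Sh2b3 by -0.58 and the phosphatase gene Ptpn2 by 0.71 in log2, with edgeR adjusted p between 0.013 and 0.018. These 4 calls were each lost without 1 or more libraries: Stat6 without Th17 library 2 (adjusted p 0.13) or naive library 2 (0.057), Ptpn6 without Th17 library 2 (0.15), naive library 1 (0.060) or naive library 2 (0.098), Sh2b3 without the same libraries (0.12, 0.094 and 0.11), and Ptpn2 without Th17 library 1 (0.055), naive library 1 (0.16) or naive library 2 (0.059). Socs3, at 123 ± 1.48 CPM in Th17 and 207 ± 116 CPM in naive cells (SD, n = 2), was not called over 4 libraries (edgeR adjusted p 0.24) and was called lower without Th17 library 1, Th17 library 2 or naive library 2 (adjusted p 0.010, 0.018 and 0.012).

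**Figure D4:**
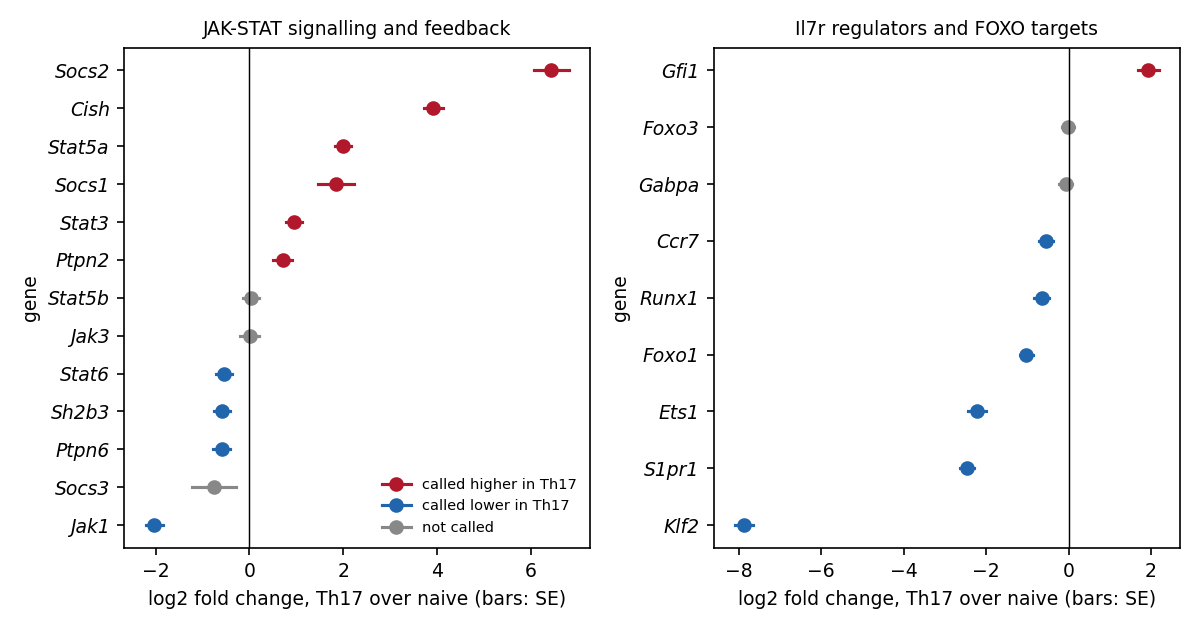
Log2 fold change (Th17 over naive) with its SE for 13 genes of JAK-STAT signalling (left) and 9 regulators of Il7r and genes under FOXO control (right). Socs2 and Cish are highest and Jak1 lowest on the left, and Klf2 and S1pr1 are lowest on the right.

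Of 19 genes known to respond to IL-2 and STAT5, all tested, 13 were called higher, 3 lower and 3 were not called. Of all tested genes 34.3% were called higher and 30.7% lower. The median log2 fold change was 1.39 against 0.06 over all tested genes. The list gives no expected direction for its genes, so its counts and median do not measure a response to IL-2. In this list Lif, Il10 and Tnfrsf8 passed the filter on low counts through their Th17 reads alone, so they could only be called higher. Lif, a cytokine of the IL-6 family, had 786 ± 182 CPM in Th17 and 0.318 ± 0.151 CPM in naive cells (SD, n = 2, log2 11.2, SE 0.37). Il10, with 437 and 98 Th17 reads and 0 naive reads, was at least 61.0-fold higher (at least 40.1-fold without Th17 library 1 and 81.9-fold without Th17 library 2), and Tnfrsf8, the CD30 gene, gave a ratio of summed reads of 1220 (338 to 10100) over 2 naive reads. The 3 genes called lower, named after their values were seen, were Prdm1 and Il6st, at -3.48 and -3.42 in log2, and Mcl1 at -0.81, and Prdm1 was not called without naive library 1 or naive library 2 (adjusted p 0.12 and 0.083). Bcl2, Ccnd3 and Bcl6 were not called, at -0.17, 0.13 and -0.49 in log2, and Bcl6 was called lower without Th17 library 2 (-0.93).

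Il7r fell beside other genes that the factor FOXO1 is known to keep on in naive T cells. Whether FOXO1 or another regulator had a part in the fall of Il7r was not tested. Of 10 regulators of Il7r and genes under FOXO control, all tested, 7 were called lower, 1 higher and 2 were not called, beside 30.7% lower and 34.3% higher of all tested genes, with a median log2 fold change of -0.84 against 0.06 over all tested genes. Klf2, a quiescence factor, changed by -7.87 (SE 0.22) in log2 and the egress receptor gene S1pr1 by -2.47 (SE 0.17), near the -2.34 of Il7r. Foxo3 and Gabpa, at -0.01 and -0.07, were not called. Foxo1 itself changed by -1.02 (SE 0.17) and Gfi1, a repressor of Il7r, rose by 1.94 (SE 0.25), both named after their values were seen, and Gfi1 was not called without naive library 1 or naive library 2 (adjusted p 0.058 and 0.060).

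Of 20 genes for factors known to act on the Il2 gene, all tested, 8 were called higher, 6 lower and 6 were not called, with a median log2 fold change of 0.30. These shares are close to the 34.3% higher and 30.7% lower of all tested genes. The AP-1 genes Fosl1 and Fosl2 had a ratio of 88.5 (24.2 to 735, on 2 naive reads) and a log2 of 4.82 (SE 0.18), and Crem, of the CREB family, rose by 4.97 (SE 0.22). Fosl1 passed the filter on low counts through its Th17 reads alone. Nfatc2, Fos, Jun, Jund, Ikzf2 and Pou2f1 were not called, between -1.23 and 0.65 in log2. Fos was called lower without naive library 1 (-2.08), Jun higher and Pou2f1 lower without naive library 2 (1.17 and -0.90), Ikzf2 higher without Th17 library 2 (0.75), and Jund higher by DESeq2 (0.39) and with upper quartile factors (0.48).

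Markers of other cell types moved in both directions between the groups. The 6 regulatory T cell markers, all measured, summed to 50.1 and 68.6 CPM in Th17 libraries and 68.9 and 39.8 CPM in naive libraries, with Itgb8 the highest in Th17 and Gpr83 in naive cells. Of 11 myeloid markers 10 were measured and summed to 8.64 and 8.71 CPM in Th17 and 26.2 and 17.4 CPM in naive libraries, and the 6 mast cell and basophil markers to 3.05 and 4.70 against 21.3 and 24.1 CPM. The 8 B cell markers summed to 52.6 and 45.9 CPM in Th17 libraries, against 2.49 and 3.31 CPM in naive libraries. Almost all of the Th17 sum was Ebf1 at 48.3 ± 5.16 CPM (SD, n = 2), while Ms4a1 had 1 Th17 read and 0 naive reads. The 8 dendritic cell markers summed to 84.0 and 92.8 CPM in Th17 and 10.6 and 5.91 CPM in naive libraries, mostly from the MHC class II gene H2-Ab1 at 81.7 ± 2.81 and 3.05 ± 0.934 CPM (SD, n = 2), with Clec9a and Siglech at 0 Th17 reads. The part of any of these cells in the receptor levels was not tested.

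RNA editing was not listed in any of the 8 genes. Such editing turns adenosine into inosine, and 0 of the 869 sites of the naive and Th17 table and 0 of the 355 sites of the DDX5-deficient and wild-type table fell in them. Within the family only Il21 had listed sites, both in its 3' UTR region on chromosome 3 (mm10). The site at 37224569 was edited in 6.41% and 6.19% of reads in the Th17 libraries and was not listed for naive cells, where Il21 had 1 and 2 reads. At that site DDX5-deficient Th17 libraries had 10.8% and 13.1%, against 2.96% and 7.46% in wild-type Th17 libraries. At 37223084 the DDX5-deficient libraries had 17.6% and 21.1%, against 9.09% and 10.7% in wild-type libraries. The groups did not overlap at either site, but 2 libraries against 2 were given no test, and the files give no coverage per library, so the precision of each level is unknown.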

How the data were processed

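Ribosome-depleted RNA of mouse CD4 T cells was sequenced in 8 libraries, 2 in each of 4 groups. Per the submitters' processing notes, the authors used STAR 2.6.1a, featureCounts, DESeq2 1.18.1 and mm10; counting settings, strand and the editing caller's settings are not given in the sources used here. The deposited table holds original counts per gene, a normalized signal (counts over a size factor), and the authors' log2 fold change, Wald score, p-value and adjusted p-value, per the file headers. The editing tables hold the deposited fraction of edited reads, a confidence score and a coverage count, per the file headers.

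Counts were tested with edgeR 4.0.16 in R 4.3.3 (filterByExpr, TMM, robust quasi-likelihood, group alone, Benjamini-Hochberg at 0.05 over all genes), checked on simulated counts. Tested genes near 0 in a group passed the filter on low counts through the other group alone, so a call had a single possible direction. Group values are means of TMM-scaled CPM, with the SD of 2 libraries. 3 reads per library were the floor for genes at 0, from 0.104 to 0.227 CPM. Of 16308 identifiers 16295 matched GENCODE M21, which gave coordinates and exon lengths. Promoter windows are from RefSeq (GRCm38.p6). Alternatives were DESeq2 1.42.0, other scaling factors, other filters, no robust estimation, a replicate block and leaving out each library. Deviations from the group mean in same-numbered libraries had r = -0.081 over 11989 genes. With 2 libraries per group the crossed pairing gives the same value with its sign turned (0.081), so this does not settle whether libraries were paired.

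The 8 genes and the lists were chosen with earlier results of these data known. All 8 genes and all genes of the family and JAK-STAT lists could be named, and of other pathway lists the 3 called genes with the largest change and those not called. Markers were named by the highest level. A few genes of the lists enter the counts and sums but are not reported here by name.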

Additional observations from a re-analysis of the deposited data

How the results depend on the processing

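Il2, Il2ra, Il2rb, Il2rg and Il7r kept direction and call in all 11 alternatives run, and Il4ra and Il15ra were called in none. Il15ra lay between -0.16 and 0.07 in log2, and its sign turned with upper quartile factors (0.07) and without Th17 library 2 (0.03). Il9r was not called with no filter on low counts (log2 2.34) or a minimum mean normalized count of 10 (2.35), and its values without 1 library ran from 1.66 to 2.84. With 1 library left out, calls over all genes ran from 2380 to 4847 higher and 2567 to 3672 lower, against 4116 and 3684, and were fewest without either naive library, where the lone naive library is assumed to vary like the Th17 libraries. Rises among the 8 genes ran from 3 to 4 and falls stayed at 2.

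The labels number the libraries 1 and 2 in both groups without saying that a number marks a shared animal, and only the replicate 2 columns share a sample number. With the replicate block 4094 genes were called higher and 3644 lower, and among the 8 genes no call changed, with Il9r at 2.35. Levels per length rest on the exon union: with the longest transcript Il15ra rose to 3.50 in Th17 and 3.62 CPM per kilobase in naive cells. Il2rg rose to 138 in Th17 and 287 CPM per kilobase in naive cells, and its ratios to other chains moved with it. Naive levels of Il2 and Il9r rest on 1 to 10 reads per library.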
